A study of Homo sapiens with 19 samples.

Results

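Frame-shifting cassette exons are exons that a transcript can include or skip and whose length is not a multiple of 3, so that skipping them moves the reading frame of everything downstream. They were taken from the skipped exon (SE) events of the 3 comparisons by length alone, as all events whose exon measures 28 to 299 nt and is not divisible by 3. The rule found 40702 of 73389 SE events, which lie on 28905 exons in 9975 genes, because an exon with several pairs of flanking exons gives several events. Of these events 17774 were found in all 3 comparisons, and the median exon length was 115 nt. The cells were HMLE/Twist-ER, TERT-immortalized human mammary epithelial cells in which tamoxifen switches on a Twist-estrogen receptor fusion and so starts an epithelial-mesenchymal transition (EMT). Epithelial cells (EPI) were left untreated, and mesenchymal cells (MES) received 20 nM tamoxifen and were passaged until their shape was fully mesenchymal, so that the MES state here is that of a single line driven by 1 transgene. All cells used for RNA-seq carried a stable lentiviral shRNA, either non-specific (control) or against AKAP8 (KD), a nuclear RNA-binding protein. Poly(A) RNA was sequenced in 3 EPI control, 3 EPI AKAP8 KD, 3 MES control and 2 MES AKAP8 KD libraries, and AKAP8 binding was mapped by eCLIP, the sequencing of RNA crosslinked to a protein, with 2 precipitates and 2 inputs per state.

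An exon that shifts the frame can act on a message in several ways. When a shifted frame runs into a stop codon well before the last exon junction, the message is a candidate for nonsense-mediated decay (NMD), the pathway that removes transcripts with premature stop codons. An exon whose inclusion brings in such a stop is often called a poison exon, and genes for splicing factors are known to use such exons to limit their own levels. A stop codon near the end of the message instead gives a protein with another C-terminus, an exon that holds the start codon decides where the protein begins, and exons in the 5′ untranslated region (5′ UTR) or in noncoding RNA leave the protein as it is. Pairs of exons that are used in turn, such as those of FGFR2 and the tropomyosins, shift the frame only when both or neither are used. In mammary cells EMT is accompanied by loss of the ESRP splicing factors and by a known set of exon switches, among them those of CTNND1 and FGFR2.

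The sequences of a few exons on which the results turn show how they act (GRCh37, read 5′ to 3′ on the strand of the gene). In the first set, capitals mark the first stop codon met in frame inside the exon when an annotated coding transcript is read with the exon included. Of these, the exons of TMEM126B, FAM76B, MAX and SETD5 are given from their first base to shortly after the stop codon, and the others are whole.
ATP5C1, 37 nt (chr10:7848937-7848973, plus strand): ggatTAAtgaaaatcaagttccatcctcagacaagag
TMEM126B, start of 131 nt (chr11:85340176-85340253, plus strand): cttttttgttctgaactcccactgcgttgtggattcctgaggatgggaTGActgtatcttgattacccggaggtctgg
TPM2, the second exon of the pair, 76 nt (chr9:35684729-35684804, minus strand): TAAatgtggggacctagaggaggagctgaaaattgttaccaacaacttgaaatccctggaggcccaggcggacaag
FAM76B, start of 58 nt (chr11:95512263-95512299, minus strand): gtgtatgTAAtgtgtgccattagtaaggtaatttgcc
MAX, start of 101 nt (chr14:65544103-65544146, minus strand): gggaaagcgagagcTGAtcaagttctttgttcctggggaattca
SETD5, start of 137 nt (chr3:9475729-9475788, plus strand): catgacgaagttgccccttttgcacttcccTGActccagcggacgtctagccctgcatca
The stop codon stood at base 5 of the ATP5C1 exon and base 1 of the second TPM2 exon, so that hardly any of both exons would be translated in that frame. For TPM2 it is met only in a message that holds both exons of the pair, because the same exon is read in another frame when it follows the exon before the pair.

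The 289-nt exon of CTNND1 is shown from its start codon, in capitals, which lies at base 95 of the exon. Transcripts that skip this exon start at a later ATG and lack the N-terminal stretch it encodes.
CTNND1, 195 of 289 nt (chr11:57558951-57559145, plus strand): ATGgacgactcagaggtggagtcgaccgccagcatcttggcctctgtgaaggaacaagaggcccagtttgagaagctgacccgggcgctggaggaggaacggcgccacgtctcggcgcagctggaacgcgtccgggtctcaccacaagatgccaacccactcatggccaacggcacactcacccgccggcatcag
A further pair of exons, of the splicing regulators CLK4 and RBM5, is shown in capitals with 20 nt of the intron before and 6 nt of the intron after in lower case, so that both splice sites can be read. The CLK4 exon brings in a stop codon further downstream when it is included, whereas the RBM5 exon does so when it is skipped.
CLK4, 59 nt (chr5:178046839-178046897, minus strand): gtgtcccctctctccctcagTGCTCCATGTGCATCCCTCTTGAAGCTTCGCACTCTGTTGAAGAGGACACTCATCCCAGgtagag
RBM5, 61 nt (chr3:50141681-50141741, plus strand): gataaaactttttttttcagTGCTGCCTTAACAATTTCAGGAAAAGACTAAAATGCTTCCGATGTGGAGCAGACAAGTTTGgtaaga
The first exons of the alternative pairs of TPM1 and TPM2, which encode the same stretch of 2 tropomyosins, are shown with the bases they share in capitals.
TPM1, the first exon of the pair, 76 nt (chr15:63353397-63353472, plus strand): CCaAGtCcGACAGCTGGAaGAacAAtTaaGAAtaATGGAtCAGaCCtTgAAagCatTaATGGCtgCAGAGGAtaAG
TPM2, the first exon of the pair, 76 nt (chr9:35685061-35685136, minus strand): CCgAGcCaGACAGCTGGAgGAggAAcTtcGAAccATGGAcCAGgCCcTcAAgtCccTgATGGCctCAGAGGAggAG
They were identical at 52 of 76 positions, and the first and second exons of the TPM2 pair at 40 of 76.

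For each library, the percent spliced in (PSI) is the share of an exon's messages that include it, computed from inclusion and skipping junction reads divided by the lengths over which they can arise. A difference in PSI (∆PSI) is given in percentage points, as KD minus control or MES minus EPI. The libraries held 31258177 to 40852217 junction reads over all SE events and 15548803 to 19513841 over the frame-shifting exons, where a read on junctions of several events counts in each. The junction reads of AKAP8 in KD libraries came to 37.1 to 46.9% of the control mean in EPI and 39.3 to 44.3% in MES. The log2 fold changes of AKAP8 were -1.20 (standard error 0.25, adjusted p = 0.066, limma) in EPI and -1.20 (standard error 0.28, adjusted p = 0.032, limma) in MES. The states matched their labels. Of the 10 epithelial markers 5 had a value, and their summed level was 7352 to 8773 in EPI control and 547 to 896 in MES control libraries. CDH1 fell by 4.34 and ESRP1 by 4.05 on the log2 scale, while VIM rose by 1.77 and CDH11 by 7.34. The epithelial sums of KD libraries were 8044 to 9806 in EPI and 451 to 660 in MES. In bulk RNA, fewer cells of a type and less RNA per cell cannot be told apart. The study's methods call the libraries of a group biological replicates, and the p-values measure the spread between these libraries of a single line.

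Most frame-shifting exons were included nearly always, and the 4 groups hardly differed in this. Over the 14617 events of this kind with at least 20 reads in every library, the median PSI lay between 98.9 and 99.4% in all 11 libraries. Between 80.7 and 81.7% of them had a PSI over 90%, 6.79 to 7.24% had a PSI under 10%, and 11.3 to 12.5% lay between. Frame-preserving exons of the same lengths, whose skipping leaves the frame intact, lay between 10 and 90% more often, at 14 to 15.2% of 11512 events in each library.

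The annotated effect of an exon on the frame went with its level, in part by construction. For each exon a single annotated coding transcript, the canonical one where marked, was read with and without the exon. A form was called an early-stop form if its stop codon lay more than 50 nt before the last exon junction. The form held by that transcript has its annotated stop codon, so an early stop comes mainly from the other form. Class and level are therefore not independent measures. Skipping gave the early stop for 16142 of the 40702 events (39.7%), and inclusion gave it for 2234 (5.49%). A further 4460 (11%) had an early stop in neither form, 1627 (4.0%) held the start codon and 2118 (5.20%) lay in the 5′ UTR, while 13788 (33.9%) matched no coding transcript. Exons whose skipping gives the early stop had a PSI over 90% in 93.3 to 94.1% of 6897 events, and under 10% in at most 0.0870%. Exons whose inclusion gives it showed the reverse, with a median PSI of 5.09 to 7.14% over 1192 events and 53.6 to 57.7% of them under 10%. Of these classes, exons of the 5′ UTR had intermediate levels most often, with 37.7 to 41.1% of 928 events between 10 and 90%. Frame-preserving exons of the 5′ UTR did so about as often. By mean EPI control PSI in the EMT comparison, 39.6% of them lay in that range, beside 37.4% of the frame-shifting ones. In each frame-shifting class the libraries of the 4 groups lay close together, as the plot of shares by class shows. Transcripts that NMD removes are missing from steady-state RNA, so these levels are those of the RNA that remained.

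**Figure D1:**
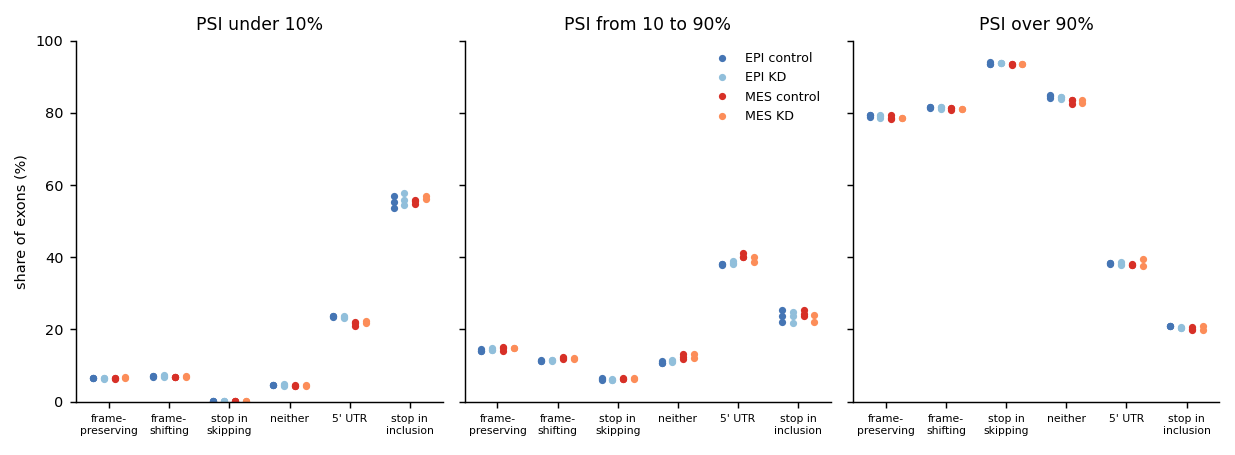
Share of exons (%, y axis) with a PSI under 10%, from 10 to 90% and over 90%, for frame-preserving exons, all frame-shifting exons and 4 classes of frame-shifting exons (x axis), with 1 point for each of the 11 libraries, coloured by group. Exons with an early stop on skipping sit over 93% in the right panel and exons with an early stop on inclusion over 53% in the left one, and in each class the groups lie close together.

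AKAP8 knockdown changed few frame-shifting exons in EPI cells. The test asked whether inclusion differed between KD and control libraries beyond the spread of the libraries, and an exon counted as changed at an adjusted p under 0.05 with a ∆PSI of at least 10 points. Of 26110 frame-shifting events tested, 7 changed in 6 genes, 3 toward inclusion and 4 toward skipping, against 0.0588% of all SE events tested (0.0273% toward inclusion and 0.0315% toward skipping). This is 0.0268% of the frame-shifting events and compares with 16 of 19093 frame-preserving events (0.0838%). Without adjustment, 181 frame-shifting events had a p under 0.05 and a ∆PSI of this size. The 7 belonged to ATP5C1, TPM1, TPM2 (both exons of its pair), CLK4, FAM126A and SNHG8. In all 7 the KD and control libraries did not overlap, as in 5.66% of all SE events tested. An exact permutation test of 3 libraries against 3 cannot give a p below 0.1 for a single exon, and none below 0.333 for 2 against 2.

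The tropomyosins TPM1 and TPM2, which wrap actin filaments, carried 3 of the 7. In TPM2 the first exon of the pair had a PSI of 69.9, 72.4 and 74.7% in EPI control and 48.8, 51.3 and 55.7% in EPI KD libraries. Every KD library lay far below every control library, and the mean fell from 72.3% ± 2.37 (SD, n = 3) to 51.9% ± 3.5 (SD, n = 3), with ∆PSI -20.4 and adjusted p = 1.1e-12. The second exon of the pair moved the other way, from 10.2, 8.2 and 10.1% to 20.2, 20.1 and 19.3%, without overlap (∆PSI 10.4, adjusted p = 2.4e-13). The second exon is itself a flanking exon of the event of the first, and the reverse, so the 2 values rest in part on the same reads. The call of the second exon was lost without the control library at place 2 of its list, where ∆PSI was 9.73. For TPM1, the first exon of the pair stood at 91.8, 91.2 and 90.4% in control and 84.6, 72.4 and 78.4% in KD libraries. Its ∆PSI was -12.6 (adjusted p = 0.031), and the KD libraries spread far more than the controls, with SDs of 6.08 and 0.680. The TPM1 call was lost in 5 of 6 fits that left out 1 library. Of the 53 genes on the list for actin and adhesion, no other gene than TPM1 and TPM2 had a changed frame-shifting exon. In all 3 of 170 events changed (1.76%, beside 0.0268% of all frame-shifting events), including both exons of the TPM2 pair.

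The 37-nt exon of ATP5C1, which encodes the γ subunit of mitochondrial ATP synthase, was included almost completely in EPI control libraries, at 95.1% in each. In EPI KD libraries it stood at 87.5, 78.7 and 85.4%, below every control (∆PSI -11.3, adjusted p = 3.5e-10). Both forms encode nearly the same protein, of 298 codons with the exon and 297 without it, and the exon holds the stop codon. Without the KD library at place 2 its ∆PSI was -8.67, under the cutoff of 10 points.

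The remaining 3 exons lay in different kinds of gene. CLK4, a kinase of the SR protein splicing factors, has a 59-nt exon whose inclusion shortens the reading frame from 481 to 76 codons. It was rarely included in EPI control libraries, at 4.09, 1.57 and 3.95%, and more often in KD libraries, at 16.2, 7.03 and 28.5%. The groups did not overlap, but the KD libraries differed widely among themselves (∆PSI 14, adjusted p = 0.013). The call was lost without any of the 3 controls or without the KD library at place 3. The 296-nt exon of FAM126A, a gene for a subunit of a phosphatidylinositol kinase complex, rose from 52.9, 59 and 60.5% to 71.4, 89.5 and 75.1% (∆PSI 21.2, adjusted p = 0.0026). It too had no overlap between groups, and its call was lost without the control at place 1 or the KD library at place 3. The 194-nt exon of SNHG8, a noncoding host of a small nucleolar RNA, fell from 76.7, 69.6 and 63.2% to 43.9, 54.5 and 41.6% (∆PSI -23.1, adjusted p = 8.5e-11). SNHG8 and the first TPM2 exon kept their calls whichever library was left out, but limma on the logit of PSI called none of the 7. Of the 74 splicing factor genes on the list, CLK4 was the only one with a changed frame-shifting exon. This was 1 of 214 events (0.467%, beside 0.0268% of all frame-shifting events).

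In MES cells, 4 of 23766 frame-shifting events changed after knockdown, all toward skipping, against 0.0479% of all SE events tested (0.0114% toward inclusion and 0.0365% toward skipping). These are 0.0168% of the frame-shifting events, beside 11 of 17915 frame-preserving events (0.0614%), and 221 frame-shifting events passed at an unadjusted p under 0.05 with the same ∆PSI. The fit used the 2 controls of this comparison's table, the first 2 of the 3 MES control libraries. ATP5C1 changed most. Its 37-nt exon stood at 79.5 and 75% in these controls and at 43.8 and 46.6% in MES KD libraries (∆PSI -32, adjusted p = 3.0e-16). The first TPM2 exon was at 67.1 and 67.8% in the controls and at 47.8 and 50.6% after knockdown (∆PSI -18.2, adjusted p = 2.6e-12). Both kept their calls whichever of the 4 libraries was left out, and limma on the logit of PSI called 0 of the 4 exons changed in MES. The second TPM2 exon stood at 10.2 and 11.2% in the controls and 18.1 and 19.4% in KD libraries, a ∆PSI of 8.08 that missed the cutoff of 10 points (adjusted p = 2.5e-09).

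The calls of the other 2 exons changed in MES cells were less stable when a library was left out. The 269-nt 5′ UTR exon of PLD3, a lysosomal nuclease, was at 78.5 and 81.9% in the controls and 58.7 and 56% after knockdown (∆PSI -22.8, adjusted p = 0.0022). The MES control outside this fit stood at 71.5%, and PLD3 stayed called when it was added. With 1 library left out, the ∆PSI of the PLD3 exon stayed between -24.5 and -21.2. Its call was lost in 3 of 4 fits that left out 1 library, without either control and without the KD library at place 2. TMEM126B, a factor for the assembly of respiratory complex I, has a 131-nt exon whose inclusion puts a stop codon after 43 of 230 codons. It stood at 13.6 and 19.3% in the controls and 5.7 and 4.25% in KD libraries (∆PSI -11.5, adjusted p = 0.021). The remaining MES control, at 8.49%, lay below both other controls. With it in the fit the ∆PSI was -8.83 and the exon was no longer called, nor was it with any of the 4 libraries left out.

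**Figure D2:**
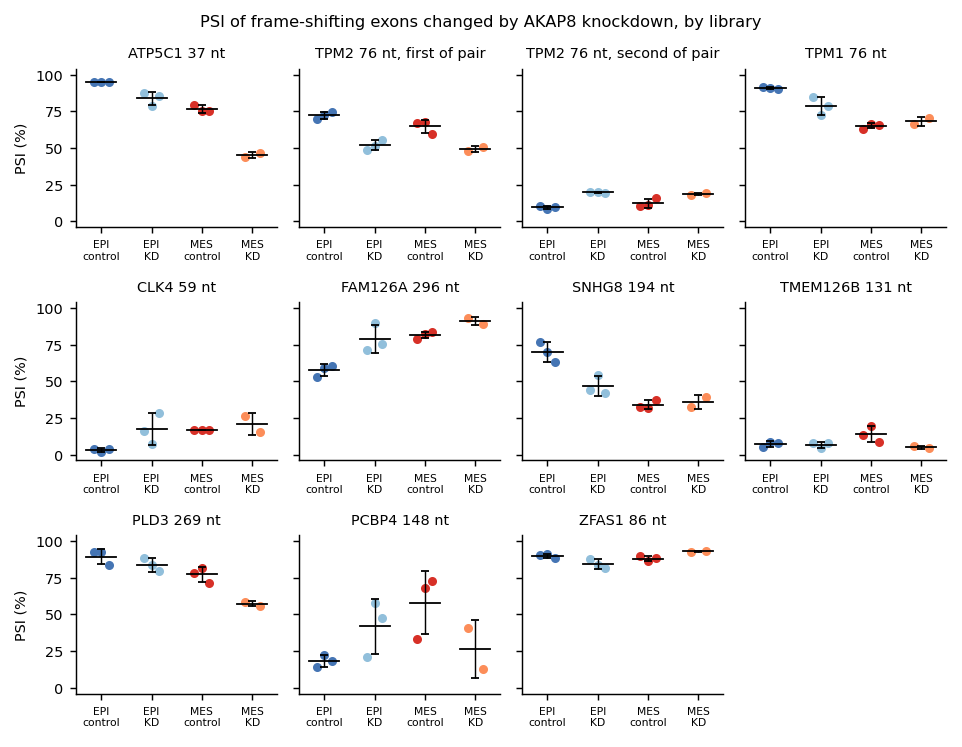
PSI (%, y axis) of the 11 frame-shifting exons named for the knockdown comparisons, by group (x axis), with 1 point per library, the mean as a line and the SD as an error bar. ATP5C1 and the first TPM2 exon were lower after knockdown in both states, CLK4, FAM126A and SNHG8 differed in EPI, and PCBP4 and ZFAS1 are shown because their knockdown effect differed between states.

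The 2 knockdown comparisons share no library. Of 16375 frame-shifting events tested in both, 2 were changed in both, ATP5C1 and the first TPM2 exon, and both went toward skipping in both states. For the others changed in EPI, the values in MES were smaller in size, and those of SNHG8 and TPM1 had the opposite sign. SNHG8 had a ∆PSI of 3.73 in MES (adjusted p = 0.76), CLK4 of 3.88 (adjusted p = 0.78), TPM1 of 3.28 (adjusted p = 0.76) and FAM126A of 10.2 (adjusted p = 0.4). In the EMT comparison the 37-nt ATP5C1 exon fell from EPI to MES controls as well (∆PSI -18.5, adjusted p = 2.1e-24), as did TPM1 (-26, adjusted p = 1.2e-14) and SNHG8 (-35.9, adjusted p = 4.8e-32), while CLK4 (13.6, adjusted p = 0.0016) and FAM126A (24.1, adjusted p = 4.1e-10) rose. TPM2 was not called there (first exon -7.41, adjusted p = 0.06), nor was TMEM126B (6.64, adjusted p = 0.052). PLD3 fell from EPI to MES controls (-12.1, adjusted p = 0.0078). These values share the EPI control libraries with the EPI knockdown comparison and 2 of the MES controls with the MES one, so a high or low control library enters both.

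Whether the knockdown effect differed between the states was tested with an interaction term over the 11 libraries. It did so for 3 of 16074 frame-shifting events (0.00993% of all SE events tested), and 1227 had an unadjusted p under 0.05. SNHG8 fell after knockdown in EPI and stood at 32.4, 32 and 37.4% in control and 32.6 and 39.3% in KD libraries of MES, so that the 2 effects differed by 25.1 points (adjusted p = 0.0021). For the 148-nt 5′ UTR exon of PCBP4, a gene for a poly(C)-binding protein, the difference was -55.2 points (adjusted p = 0.015). Its PSI was 13.9, 22.6 and 18.2% in EPI control, 21.1, 57.4 and 47.4% in EPI KD, 33.3, 67.8 and 73% in MES control and 40.6 and 12.5% in MES KD libraries. The groups of each state overlapped, and neither knockdown comparison called the exon on its own. An 86-nt exon of ZFAS1, another noncoding host of small nucleolar RNAs, stood at 90.5, 91 and 88.1% in EPI control and 87.9, 83.5 and 81.2% in EPI KD libraries. In MES it stood at 89.6, 86.1 and 88.2% in control and 92.4 and 93.2% in KD libraries, a difference between effects of 10.6 points (adjusted p = 0.043). No call of the 3 held in every fit that left out 1 library, with SNHG8 called in 8, PCBP4 in 5 and ZFAS1 in 3 of 11.

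EMT changed far more frame-shifting exons than the knockdown. Between EPI and MES control libraries, 258 of 27004 frame-shifting events changed in 216 genes, 142 toward inclusion and 116 toward skipping, which is 0.955% against 1.4% of all SE events tested (0.772% toward inclusion and 0.628% toward skipping). The share was 1.81% for frame-preserving exons (361 of 19911), 7.02% for microexons of up to 27 nt (32 of 456) and 2.04% for exons of 300 nt and more (40 of 1959). Among events with an EPI PSI between 10 and 90%, 181 of 2420 frame-shifting (7.48%) and 266 of 2182 frame-preserving events (12.2%) changed. Leaving out 1 library gave 145 to 306 events, with 145 without the EPI control at place 1 and 152 and 166 without the MES controls at places 1 and 2. Without adjustment, 703 had a p under 0.05 and a ∆PSI of this size. In 243 of the 258 the groups did not overlap, as in 10.6% of all SE events tested.

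The changes were of moderate size. The median ∆PSI was 22.5 points among rises and -17.0 among falls, 60 events changed by at least 30 points and 9 by at least 50. Before EMT 27 of the 258 had a PSI under 10%, 50 a PSI over 90% and 181 a PSI between. Their median SD was 3.77 points among the 3 EPI and 5.35 among the 3 MES libraries. By length, 37 of 2501 events of 28 to 60 nt changed (1.48%), 81 of 8146 of 61 to 100 nt (0.994%), 78 of 9459 of 101 to 150 nt (0.825%), 37 of 4871 of 151 to 200 nt (0.76%) and 25 of 2027 of 201 to 299 nt (1.23%). At the edges of the length rule, none of the 31 events of 28 nt and 1 of 7 events of 299 nt changed (PQBP1), beside 0 of 34 events of 26 nt and 0 of 14 of 301 nt. Exons of length 1 more than a multiple of 3 and 2 more changed about equally often, with 128 of 13664 and 130 of 13340. In 155 of the 258 (60.1%) a flanking exon was itself a cassette exon of the tables, beside 65.4% of all frame-shifting events tested.

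By their effect on the frame, the changed exons fell into several classes. An early stop on inclusion was found for 57 of 1654 tested (3.45%; 27 rose and 30 fell), and an early stop on skipping for 55 of 12142 (0.453%; 34 rose and 21 fell). For exons of the 5′ UTR 50 of 1410 changed (3.55%; 34 rose and 16 fell), for exons with an early stop in neither form 42 of 3386 (1.24%), and for exons with the start codon 11 of 1221 (0.901%). Among events with an EPI PSI between 10 and 90% the shares ran from 4.95% for exons with the start codon (5 of 101) to 10.3% for those with an early stop on inclusion (41 of 398). In that range lay 24.1% of the exons with an early stop on inclusion and 4.37% of those with one on skipping. Over both early-stop classes, the early-stop form was higher in MES for 48 and lower for 64 of 112 events. These counts include exons of alternative pairs, such as that of TPM1, whose early stop arises only in a message with both exons. How many of the events are of this kind was not determined. Of the 57 exons with an early stop on inclusion, 41 (71.9%) held the stop themselves, as did 69.5% of those tested, and the median reading frame was 135 codons with the exon and 481 without it. For the 55 exons with an early stop on skipping it was 538 codons with the exon and 114 without it.

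**Figure D3:**
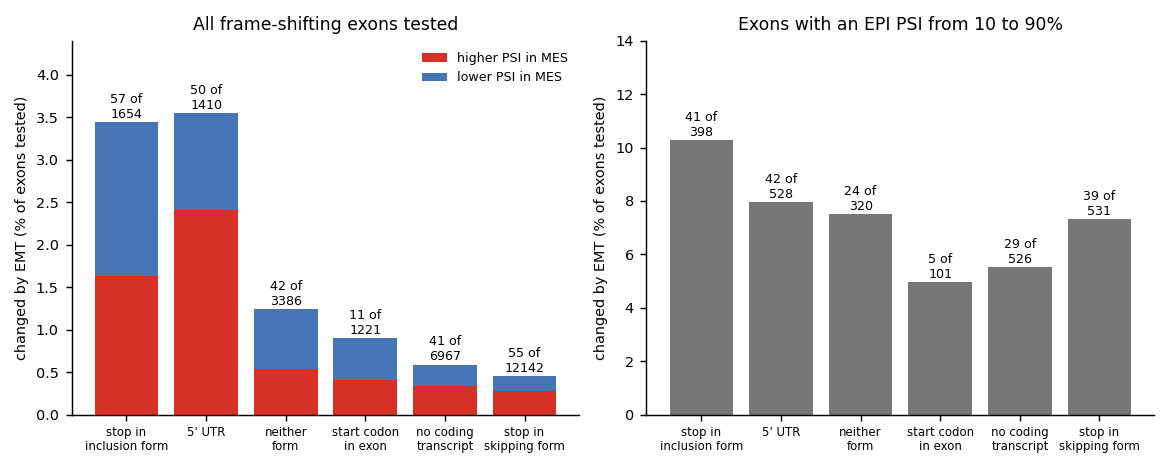
Share of tested frame-shifting exons changed by EMT in control cells (%, y axes, from 0) by reading-frame class (x axes), for all events with the part that rose and the part that fell stacked in the left panel and for events with an EPI PSI from 10 to 90% in the right one. The numbers over the bars give changed of tested events, which run from 0.453 to 3.55% in the left panel and from 4.95 to 10.3% in the right.

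Genes of cell polarity and junctions had 11 changed events of 105 tested (10.5%, beside 0.955% of all frame-shifting events), 10 of them rises, and 9 of the 11 lie in CTNND1. CTNND1 encodes p120-catenin, which holds cadherins at the membrane. Its 289-nt exon with the start codon stood at 5.87, 10.8 and 4.87% in EPI control and 48.8, 43.7 and 42.4% in MES control libraries, far apart (mean 7.17% ± 3.16 (SD, n = 3) and 45% ± 3.38 (SD, n = 3), ∆PSI 37.8, adjusted p = 2.4e-39). The 9 events of the gene cover this exon and a 119-nt exon before it with different flanking exons, all rose, by 19.5 to 69.3 points, and they share reads. In KD cells the 289-nt exon was at 7.25, 8.53 and 5.76% in EPI and 46.8 and 46.5% in MES, close to the control libraries of the same state. The 100-nt exon of DLG1, a scaffold of junctions and polarity, rose from 41, 48 and 44.1% to 78.6, 68.7 and 77.4% (∆PSI 30.6, adjusted p = 5.0e-06), and its inclusion cuts the frame from 904 to 704 codons in the annotated transcript. The 38-nt exon of SCRIB, another polarity scaffold, fell slightly from 96.7, 95.3 and 96.2% to 87.3, 85.2 and 82.5% (∆PSI -11.1, adjusted p = 0.037), and this call was lost without any one of the 6 libraries. In the list for actin and adhesion, the TPM1 exon was the only one of 179 events that changed (0.559%, beside 0.955% of all frame-shifting events). It fell from 91.8, 91.2 and 90.4% to 63.2, 66.6 and 65.6%. GSN encodes gelsolin, which severs actin filaments and was not on that list. Its 71-nt exon rose from 14.5, 16.7 and 31.3% to 63.7, 71.9 and 66.5% (∆PSI 46.5, adjusted p = 1.0e-06).

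On the list for kinases and phosphatases, 5 of 215 events changed (2.33%, beside 0.955% of all frame-shifting events), all in FGFR2, PTK2 and STK25. The 145-nt exon of FGFR2 is exon IIIc, the mesenchymal choice of an immunoglobulin domain of the receptor, and its flanking exon in this event is exon IIIb, the epithelial choice. Inclusion was 0, 0 and 1.18% in EPI and 50, 36.4 and 66.7% in MES control libraries (∆PSI 50.6, adjusted p = 2.1e-07). The MES values rest on 6, 15 and 10 reads, and the gene's junction reads fell by 2.92 on the log2 scale (adjusted p = 0.00039, limma), so the PSI in MES is imprecise. The reverse event, with the 148-nt exon IIIb between the same neighbours, stood at 100% in each EPI library and at 27.3, 17.6 and 80% in MES (∆PSI -58.4, adjusted p = 8.7e-05), from 7, 10 and 9 reads in MES. Because the downstream junction of IIIc is counted also from messages with IIIc alone, these values follow the choice between the exons and not the inclusion of both. A 56-nt 5′ UTR exon of DDR1, a collagen receptor that is not among the changed genes of that list, rose from 34, 37.1 and 35.2% to 74.3, 79.9 and 86.1% (∆PSI 44.7, adjusted p = 0.00072). The 89-nt 5′ UTR exon of PTK2, the focal adhesion kinase, went from 44.3, 52.6 and 53.9% to 63.6, 66 and 70.6% (adjusted p = 0.043), a call that no fit with 1 library fewer kept. In STK25, a kinase of the Golgi apparatus, the 130-nt exon with the start codon fell from 91.9, 98.9 and 90.2% to 80.8, 76.5 and 90.2% (∆PSI -11.2, adjusted p = 0.0085), with the highest MES library level with the lowest EPI library and a call lost in 2 of 6 fits that left out 1 library.

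Several changed exons belong to the splicing and decay machinery itself. They were 6 of 231 events of splicing factors (2.6%, 4 rose and 2 fell), in 4 genes, and a single one of 43 events of NMD factors (2.33%). Among all frame-shifting events the share was 0.955%. The gene lists were chosen with earlier results of these data known, so their shares are descriptions and show no enrichment. The RNA-binding proteins RBM5 and RBM6 and the NMD factor UPF3A had exons whose skipping gives an early stop, and all 3 were included more often in MES. RBM5 rose from 72.5, 49.5 and 70% to 98.3, 94.3 and 89.5% (∆PSI 30.1, adjusted p = 1.0e-11), with the 3 EPI libraries widely spread but all below the MES ones. Skipping leaves 217 of 815 codons. UPF3A rose from 56.1, 74.3 and 62.8% to 91, 93.8 and 78.8% (∆PSI 23.4, adjusted p = 0.0022) and RBM6 from 66, 69 and 51% to 87.2, 76.6 and 76.7% (∆PSI 18.1, adjusted p = 0.0076). Both calls were lost in 2 of 6 fits that left out 1 library. The CLK4 exon, a poison exon by its reading, rose from 4.09, 1.57 and 3.95% to 16.9, 16.6 and 16.9%, and CLK2, another kinase of SR proteins, lost some of its 88-nt exon, from 96.4, 100 and 94.6% to 73.3, 91.7 and 93.9% (∆PSI -10.7, adjusted p = 0.022). The highest MES library of CLK2 lay just under the lowest EPI library, and its call was lost in 3 of 6 fits that left out 1 library. In summed junction reads none of these genes passed the cutoffs. RBM5 came closest, with a log2 fold change of 0.78 (adjusted p = 0.053, limma). The others had 0.41 for RBM6, 0.32 for UPF3A, 0.35 for CLK4 and -0.15 for CLK2.

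Other exons that bring in an early stop when included went in both directions. PISD, a mitochondrial phospholipid enzyme, rose from 11.9, 11.2 and 20.7% to 51.3, 51.7 and 25% (∆PSI 28.1, adjusted p = 2.2e-05). RALGAPA1, a subunit of the GTPase-activating complex for Ral proteins, rose from 9.69, 5.34 and 8.91% to 28.8, 54.4 and 52.4% (∆PSI 37.2, adjusted p = 0.00044). RABGAP1L, which acts on Rab proteins, rose by 38.3 points (adjusted p = 0.0095). The stop codon of the RALGAPA1 inclusion form leaves 840 of 2083 codons. Falls were seen in DNM2, the GTPase that cuts endocytic vesicles off the membrane, whose 139-nt exon went from 96.7, 90.1 and 92.6% to 77, 75 and 79.5% (∆PSI -16, adjusted p = 1.8e-05). A flanking exon of the 139-nt DNM2 exon is itself a cassette exon, so the early stop holds only for a message with both. The DNM2 call was lost with limma on the logit of PSI and with PSI computed without lengths. MAX, the partner of MYC on DNA, went from 21.4, 8.41 and 14.8% to 1.87, 2.21 and 3.6% (adjusted p = 2.8e-08), SETD5, a chromatin protein, from 25.9, 21.9 and 27.9% to 7.69, 8.2 and 12.6% (adjusted p = 0.016) and FAM76B from 55.4, 55.9 and 59% to 17, 15.3 and 25.3% (adjusted p = 0.00061). In these 3 the exon carries the stop codon shown above, and all MES libraries lay below all EPI libraries. PRR3 fell by 46.8 points (adjusted p = 4.5e-05), FAM193B by 33.1 (adjusted p = 0.026) and the 236-nt exon of TCF3, an E-protein transcription factor, by 12.5 (adjusted p = 0.035). The early stop of TCF3 was read in a message that holds this exon and both flanking exons. Whether the exon forms an alternative pair with 1 of them, used in turn, was not determined. With 1 library left out, the calls of FAM193B and TCF3 held in 1 of 6 fits, that of SETD5 was lost in 4, that of RABGAP1L in 3 and that of MAX without the EPI control at place 1.

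Exons whose skipping gives the early stop also moved both ways. The 41-nt exon of TBC1D13, a GTPase-activating protein for Rab proteins, rose from 12.9, 15.1 and 25.8% to 69.5, 72 and 71.4% (∆PSI 53, adjusted p = 7.6e-07), where skipping leaves 83 of 400 codons. MIER2, which takes part in transcriptional repression, rose from 56.9, 43.1 and 40.2% to 92.7, 88.6 and 79.6% (∆PSI 40.2, adjusted p = 1.1e-05). IDI1, an enzyme of cholesterol synthesis and one of the most deeply covered of these exons with 2395 junction reads per library, rose from 71.7, 68.7 and 79.3% to 94.1, 90 and 84.9% (∆PSI 16.5, adjusted p = 1.7e-13). LRRC27 and ZNF786 rose by 40.8 and 39.1 points (adjusted p = 0.019 and 0.027). The EPI control values of LRRC27 rest on only 18, 7 and 11 junction reads. STX16, a SNARE protein of the trans-Golgi network, fell from 87.6, 89.4 and 75.2% to 56.1, 50.1 and 56.7% (∆PSI -29.7, adjusted p = 1.7e-10). A larger fall than in STX16 was that in SIGIRR, a negative regulator of interleukin-1 and Toll-like receptor signaling, from 100, 93.8 and 100% to 14.3, 50 and 57.9% (∆PSI -57.2, adjusted p = 0.00026). Its MES libraries differed widely among themselves, at 25.2 junction reads per library on average. AFMID, an enzyme of tryptophan breakdown, fell by 33.8 points (adjusted p = 0.026). The calls of AFMID and ZNF786 were lost in 4 fits and that of LRRC27 in 3 fits that left out 1 library. IDI1 kept its call in these fits but lost it with a dispersion trend on all junction reads and with limma on the logit of PSI.

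**Figure D4:**
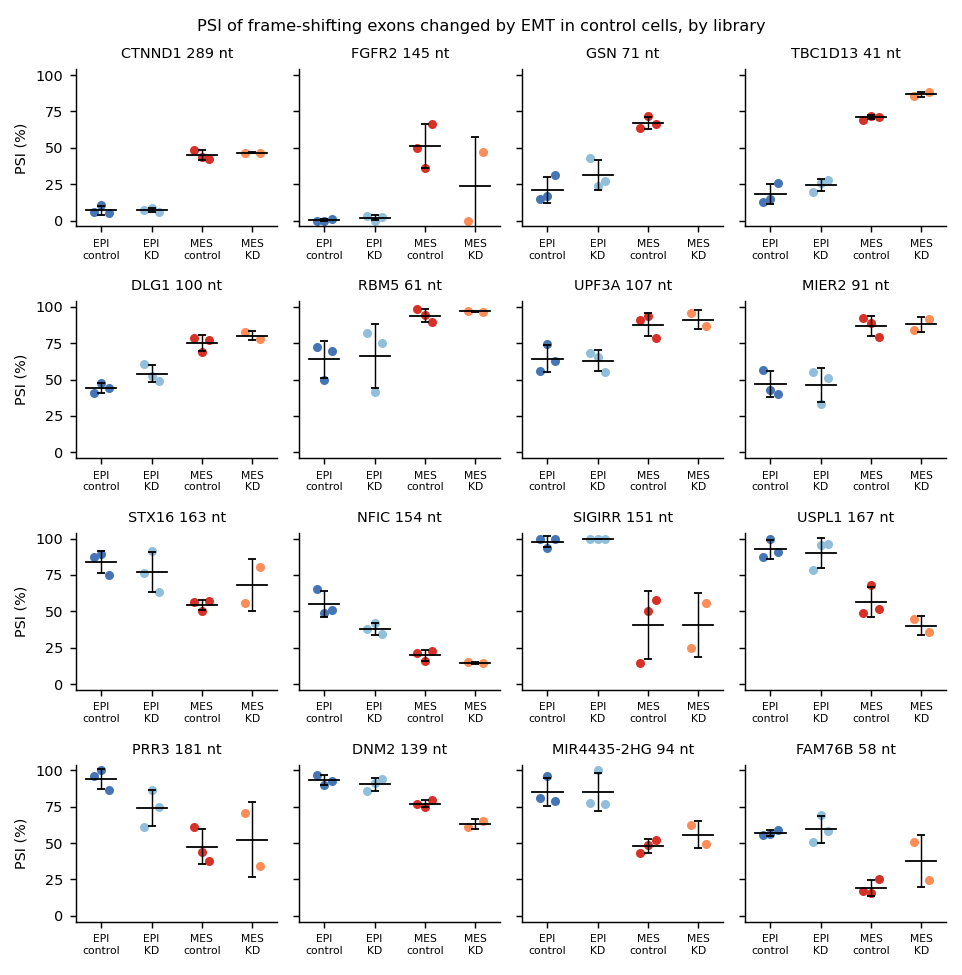
PSI (%, y axis) of 16 frame-shifting exons changed by EMT, by group (x axis), with 1 point per library, the mean as a line and the SD as an error bar. The upper 8 exons are higher and the lower 8 lower in MES than in EPI control libraries without overlap, the 2 MES KD libraries of FGFR2 rest on 2 and 14 reads with an SD bar that runs below the axis, and GSN has no MES KD value here.

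Exons outside the coding sequence, or at its start, moved in both directions. HMGCS1, a cholesterol synthesis enzyme, had the most reads, 2675 per library, and its 59-nt 5′ UTR exon rose from 41.3, 32.9 and 36.1% to 51.5, 49.5 and 49.1% (∆PSI 13.2, adjusted p = 1.3e-05). Other 5′ UTR exons that rose were those of MORF4L2, a subunit of histone acetyltransferase complexes (11 points, adjusted p = 0.0022), PRKAR1A, a regulatory subunit of protein kinase A (43.1 points, adjusted p = 0.00092), KMT2E (21 points, adjusted p = 0.00082) and PCBP4 (39.8 points, adjusted p = 2.2e-05). The start-codon exon of SEMA4B, a semaphorin, rose from 72.9, 71 and 67.5% to 100% in each (adjusted p = 0.021), and that of USPL1, a SUMO protease, fell from 87.2, 100 and 90.7% to 49, 68.1 and 51.6% (∆PSI -36.4, adjusted p = 6.0e-06). The SEMA4B gene itself fell by 1.69 on the log2 scale, and its call was lost without any one MES library. Leaving out 1 library also lost the call of MORF4L2 in 3 fits, of KMT2E in 2 and of PRKAR1A in 1.

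Exons of 5 noncoding RNAs were among the named ones. The SNHG8 exon fell from 76.7, 69.6 and 63.2% in EPI to 32.4, 32 and 37.4% in MES control libraries (∆PSI -35.9). A 62-nt exon of ZFAS1 rose from 55.7, 55.7 and 56.1% to 74.5, 72 and 64.4% (∆PSI 14.5, adjusted p = 2.8e-06), and the exon of MIR4435-2HG, a microRNA host gene, fell from 80.8, 96.3 and 78.8% to 43, 48.6 and 52.3% (∆PSI -37.3, adjusted p = 0.00058). MEG3 and A1BG-AS1 fell by 41.8 and 36.6 points, with calls that held in 1 of 6 fits with 1 library left out. Exons of GOLT1B (47.4 points, adjusted p = 0.0058), IQCK (45.2, 0.013) and BCS1L (-35.2, 0.043) matched no coding transcript with these junctions. With an early stop in neither form, the 154-nt exon of the transcription factor NFIC fell from 65.1, 49 and 51.2% to 21.4, 15.5 and 22.7% (∆PSI -35.2, adjusted p = 2.7e-07), the protein changing from 508 to 439 codons. The 73-nt exon of TCF7L2, a transcription factor of Wnt signaling, rose from 0, 1.78 and 3.39% to 24.9, 42.7 and 13.9% (adjusted p = 0.014). Leaving out 1 library lost the calls of BCS1L in 5 fits, of TCF7L2 and IQCK in 3 and of GOLT1B in 1. Of the remaining lists, apoptosis and cell cycle held 0 changed events of 147, small GTPase regulators 1 of 159 (0.629%), RNA metabolism 1 of 161 (0.621%), membrane traffic 2 of 161 (1.24%) and chromatin and transcription 4 of 176 (2.27%), beside 0.955% of all frame-shifting events.

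EPI and MES cells with AKAP8 knockdown share no library with the control cells and so give the same measure again. In them 140 of 16842 frame-shifting events changed from EPI to MES, 69 toward inclusion and 71 toward skipping (0.831%, against 1.34% of all SE events tested, 0.629% toward inclusion and 0.714% toward skipping), and 232 of 13062 frame-preserving events did (1.78%). Leaving out 1 library gave 46 to 159, with 46 and 78 without either MES KD library and 80 and 71 without the EPI KD libraries at places 2 and 3. Of the 258 events changed in control cells, 234 were also tested in KD cells. Of these 228 (97.4%) moved in the same direction and 82 were changed there too, all in the same direction. These 82 are 35.0% of the 234 and 59.4% of the 138 events changed in KD cells and tested in both. Over all 15854 frame-shifting events tested in both, 53.1% had the same direction. Across the 234 exons the ∆PSI of the 2 sets of libraries had a Pearson's r of 0.893, which is across exons, some of which share reads, and is given as a description. The median ∆PSI of the 234 in the direction seen in control cells was 14.7 points in KD cells, beside a median size of 19.6 in the control cells in which they had been chosen. TBC1D13 rose to 85.5 and 88.2% in MES KD from 20, 25.7 and 27.8% in EPI KD libraries, and USPL1 fell from 78.2, 95.7 and 96% to 44.8 and 35.5%. The 6 exons in the opposite direction lie in ARHGEF39, PCBP4, SNX5, TCTN1, TREM2 and YDJC (named after their values were seen), and of these only PCBP4 was far from 0 in KD cells, with 39.8 points in control and -15.4 in KD cells (adjusted p = 0.35 in KD cells).

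**Figure D5:**
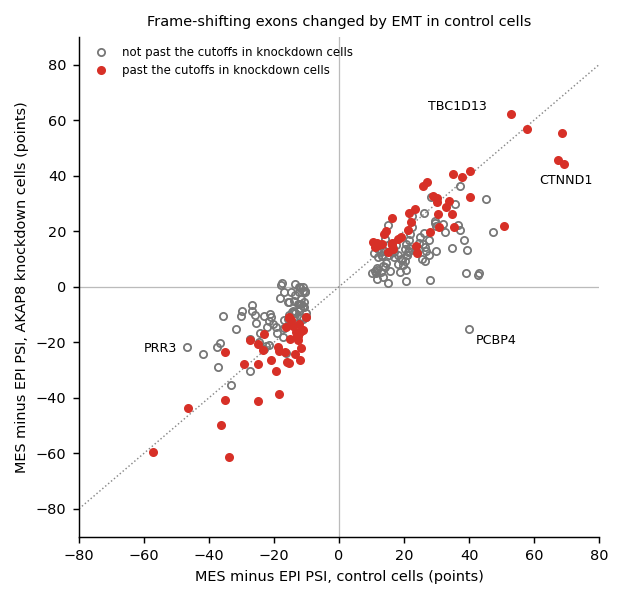
MES minus EPI PSI (percentage points) in AKAP8 KD libraries (y axis) against that in control libraries (x axis) for the 234 frame-shifting events changed by EMT in control cells and tested in both, with filled points for the 82 changed in KD cells too. The dotted line marks equal values. Of the points, 228 lie in the quadrants of equal sign, and PCBP4 stands apart at 39.8 and -15.4.

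AKAP8 peaks lay near few of these exons. The merged lists hold 21665 EPI and 26228 MES peaks at a log2 enrichment over input of at least 2 and a -log10 adjusted p of at least 3. Within 500 nt on the strand of the exon, 433 of 27004 frame-shifting events tested for EMT had an EPI peak (1.60%) and 298 a MES peak (1.10%), beside 1.63 and 1.14% of all SE events. Of the 258 changed events, 9 had an EPI peak (3.49%) and 5 a MES peak (1.94%), beside 3.47 and 2.75% of all changed SE events. They lie in APEH, BAIAP2, CAMKK2, DDR1, GSN, MAX, PISD, SEMA4B, STK25 and RP11-983P16.4. The strongest was near STK25, with a log2 enrichment of 5.50 in EPI, 411 nt downstream of the exon, and 4.05 in MES, 334 nt downstream. None of the 7 exons changed by knockdown in EPI or the 4 in MES had a peak within 500 or 1000 nt. Of the 26110 frame-shifting events tested for knockdown in EPI, 458 had an EPI peak within 500 nt and 846 within 1000 nt. In MES, 286 and 459 of 23766 tested events had a MES peak at these distances. With peaks this rare, 7 and 4 exons are too few for the absence of a peak to be informative. Peaks were merged over 2 replicates, so these counts have no error.

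The level of a gene, taken as the sum of its junction reads over SE events, passed the cutoffs about as often in genes with a changed exon as in all genes. Of the 216 genes with a frame-shifting exon changed by EMT, 30 (13.9%) passed a log2 fold change of 1 at an adjusted p under 0.05 (limma), 11 up and 19 down, with 88 at an unadjusted p under 0.05, beside 12.5% of the 9014 genes tested. None of the 6 genes changed by knockdown in EPI (0.189% of all genes) or the 4 in MES (2.27%) passed, with 1 and 0 at an unadjusted p under 0.05. Where skipping gives the early stop and the exon rose, the 33 genes had a median log2 fold change of 0.32, and the 20 genes where it fell had -0.17. Where inclusion gives the early stop, the medians were -0.01 for 25 genes whose exon rose and 0.07 for 29 whose exon fell, beside 0.01 for all genes. These medians are descriptions without a test. Of the named genes, FGFR2, DDR1, SEMA4B and HMGCS1 fell, by 2.92, 2.04, 1.69 and 1.45 on the log2 scale, and TPM1, LRRC27 and MEG3 rose, by 1.95, 1.76 and 1.72. Sums of junction reads change with splicing itself, so they follow the level of a gene only roughly.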

How the data were processed

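RNA-seq reads were aligned by the authors with STAR to GRCh37 with a Gencode annotation, and rMATS counted inclusion and skipping junction reads per event. The 3 SE tables hold these read counts as the authors deposited them, as lists of libraries without numbers, so libraries are named by their place in the list. The effective lengths of each form, a score in the tables the authors deposited, were used for PSI. The 30 columns of per-sample PSI and the authors' p-values and FDR were not used. The gene table made with featureCounts and DESeq2 was not used, because its symbol column holds whole numbers. The eCLIP peak lists give log2 of IP over input and -log10 adjusted p as deposited, after the authors' merging of replicates.

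Inclusion against skipping reads were fitted with a quasi-binomial model, 1 probability per group, for events with a mean of at least 20 junction reads. The dispersion was moderated with squeezeVar of limma 3.58.1 (R 4.3.3), along a robust trend on the reads of the rarer form, with a floor of 1, and events with fewer than 10 such reads took the trend. Adjusted p-values are Benjamini-Hochberg over all SE events tested. The model was tested on simulated data. EPI control reads were identical in the 44899 events shared by the EPI knockdown and EMT tables, and the first 2 MES controls in all 41773 shared by the other pair. Gene values are junction reads summed over events in all 3 tables and scaled by median-of-ratios size factors, tested with limma on log2(value + 1). Reading frames came from Gencode v44 lifted to GRCh37, newer than the authors' annotation, and sequences from the GRCh37 genome.

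Named exons are all called ones in the knockdown and interaction comparisons and, for EMT, 1 per gene: the 12 largest rises and falls without overlap, those in 10 gene lists, and the 5 with most reads and the 5 with the strongest peak. Some of these are not reported here. Members and lists were chosen with earlier results of these data known. Alternatives changed the read minimum, the ∆PSI cutoff, the dispersion model, the test, the PSI formula, the events per exon, the controls and the libraries. Those of the gene levels, those that left out 1 library in the interaction and the range of EPI PSI for shares by class were added after seeing the data.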

Additional observations from a re-analysis of the deposited data

Results flagged for a closer look

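In 3 frame-shifting exons the effect of AKAP8 knockdown differed between the states by the test of the interaction over 11 libraries. For the 148-nt exon of PCBP4 the knockdown effect in MES minus that in EPI was -55.2 points of PSI (adjusted p = 0.015), with 23.7 points in EPI and -31.5 in MES. The libraries of PCBP4 spread widely, with SDs of 18.7 points in EPI KD and 21.6 in MES control cells, and the control and KD groups of MES overlapped. For the 194-nt exon of SNHG8 it was 25.1 points (adjusted p = 0.0021), with -23.1 in EPI and 2.0 in MES. For the 86-nt exon of ZFAS1 it was 10.6 points (adjusted p = 0.043), with -5.68 in EPI and 4.87 in MES, and the junction reads of ZFAS1 were higher after knockdown in MES by 1.32 on the log2 scale (adjusted p = 0.0014, limma). With 1 library left out, SNHG8 was called in 8, PCBP4 in 5 and ZFAS1 in 3 of 11 fits.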

How the results depend on the processing

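No paired analysis was possible because the tables list the libraries of a group without their replicate numbers. Of 78 recomputed counts 52 stayed within 1.5 times the value reported and 26 did not. The cause of these shifts was not tested. With limma on logit PSI, 0 frame-shifting exons were called in both knockdown comparisons, where 1344 events in EPI and 1214 in MES had an unadjusted p under 0.05, and 190 in EMT. A dispersion trend on all junction reads called 10 frame-shifting exons in MES knockdown instead of 4, and 10 libraries instead of 11 left 1 exon with an interaction. Leaving out 1 library gave 4 to 9 exons for knockdown in EPI, 2 to 5 for knockdown in MES, 145 to 306 for EMT, 46 to 159 between the states of KD cells and 0 to 4 for the interaction. The lowest count for EPI knockdown came without the control at place 1 or the KD library at place 3, and that for MES knockdown without either control or the KD library at place 2. No exon kept an interaction without the EPI control at place 1 or the EPI KD library at place 3 or the MES KD library at place 2. Within 1000 nt instead of 500 nt, 828 tested and 16 EMT-changed events had an EPI peak and 487 and 8 a MES peak, and at a log2 enrichment of at least 3 the changed events with a MES peak were 3. Of the 51 exons named for EMT, 27 kept their call whichever library was left out and 31 under all other settings. The counts were 2 and 0 of 7 for knockdown in EPI and 2 and 0 of 4 for knockdown in MES, where the logit model lost every call. Over the single exons, 717 of 879 recomputed calls stayed and 162 fell short of the threshold, and none changed direction. For a distance of 100 nt instead of 50 nt to the last junction, 49 EMT-changed exons had the early stop on inclusion and 52 on skipping. Few reads of the rarer form limit the precision at exons near 0 or 100%.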
